A study of Mus musculus with 3 samples.

Results

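Mural cells, the pericytes and smooth muscle cells that surround blood vessels, were picked by a rule from single-cell libraries of 3 mouse rhabdoid tumors. A cell counted as mural when it held UMIs (unique molecular identifiers, which mark single captured RNA molecules) of at least 3 of the 7 genes Rgs5, Vtn, Kcnj8, Abcc9, Higd1b, Pdgfrb and Ndufa4l2, when fewer than 2 of the 3 endothelial genes Cldn5, Pecam1 and Flt1 were detected, and when mitochondrial transcripts made up at most 15% of its UMIs. The rule was met by 236 of the 21666 cells that passed the mitochondrial limit. The tumors form 1 group, R26-SHH, and developed in 3 different mice of the genotype Rosa 26-CreERT2::Smarcb1flox/flox. In these mice tamoxifen, given in early embryonic life, activates a Cre recombinase that is not restricted to a cell type and inactivates Smarcb1, a core subunit of the SWI/SNF chromatin remodeling complex. Every cell therefore came from an animal that carried the floxed alleles and the Cre, and no tissue of a mouse without them was analysed here. The cells were dissociated with Liberase TL and were not sorted. Although GEO lists the samples as tumor cells, the matrices also held immune and vascular cells, so the comparisons below run between classes of cells within the same tumors.

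Pericytes lie within the basement membrane that they share with the endothelium and touch the endothelial cells directly. Endothelial cells release PDGF-B, which recruits pericytes through the receptor encoded by Pdgfrb, and Notch ligands on the endothelium act on Notch3 in the mural coat. Kcnj8 and Abcc9 encode the pore and the regulatory subunit of the vascular ATP-sensitive potassium channel, and Rgs5 encodes a regulator of G-protein signaling that is a classical pericyte marker. In the brain, pericytes help to maintain the blood-brain barrier, whereas smooth muscle cells of arteries and arterioles carry contractile proteins and set the vessel diameter.

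The libraries held 12467, 9485 and 6428 cell barcodes and 79529921, 40151353 and 67645602 UMIs in tumors 1, 2 and 3. A total of 88 barcodes occurred in more than one library, none of them among the mural cells. The mural cells contributed 565150, 233043 and 586195 UMIs, with medians per cell of 3684, 2336 and 3106, against 7173, 2660.5 and 6747 in all other cells. For comparison, 444 endothelial cells (at least 2 of the 3 endothelial genes and fewer than 3 of the 7 mural genes) and 2175 immune cells (at least 4 of the 6 genes C1qa, C1qb, C1qc, Csf1r, Tyrobp and Fcer1g) were set apart, which left 18745 remaining cells. Another 66 cells met the mural and the endothelial rule at once and were kept only in the class of all other cells. Levels are given below as CPM, the counts of a gene in the summed cells of a class scaled to a fixed total of UMIs, in the order tumor 1, tumor 2, tumor 3. These counts stem from 3′ ends, so levels were compared between cells for the same gene and never between genes.

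Mural cells made up 115 of 9560 cells in tumor 1 (1.20%, 95% Clopper-Pearson interval 0.994 to 1.44), 60 of 6964 cells in tumor 2 (0.862%, 0.658 to 1.11) and 61 of 5142 cells in tumor 3 (1.19%, 0.909 to 1.52). The intervals of the 3 tumors overlapped, but those of tumors 2 and 3 did not overlap at 2000 UMIs per cell (0.826%, 0.565 to 1.16, and 1.60%, 1.18 to 2.11) or with at least 2 of the 7 genes (1.13%, 0.899 to 1.41, and 1.93%, 1.57 to 2.34). The mean share was 1.08% ± 0.192 (SD, n = 3 tumors). Intervals and detection floors cover counting error only.

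Most mural cells held far more rule genes than the 3 required. All 7 genes were detected in 103 cells, 6 in 47 cells, 5 in 31 cells, 4 in 27 cells and 3 in 28 cells. The cells just inside the threshold, with 3 rule genes, had a median of 812 UMIs. Their sum showed 1967 CPM of the 25 pericyte genes outside the rule, but the 2 deepest of them (17960 and 11038 UMIs) held 50.9% of its UMIs with only 2 pericyte UMIs, and the other 26 cells showed 3936 CPM. The 80 cells just outside it, with 2 rule genes and fewer than 2 endothelial genes, showed 334 CPM of these genes (379 CPM without the 2 deepest), and the cells with all 7 rule genes showed 9035 CPM (9691 CPM). Smarcb1 read 67.3 CPM in the cells with 7 rule genes (60 UMIs, exact Poisson 95% interval 51.3 to 86.6). The cells with 3 rule genes held 2 Smarcb1 UMIs (interval 4.25 to 127 CPM) and those with 2 rule genes held 3 (0.843 to 11.9 CPM), too few to set these levels apart.

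**Figure D1:**
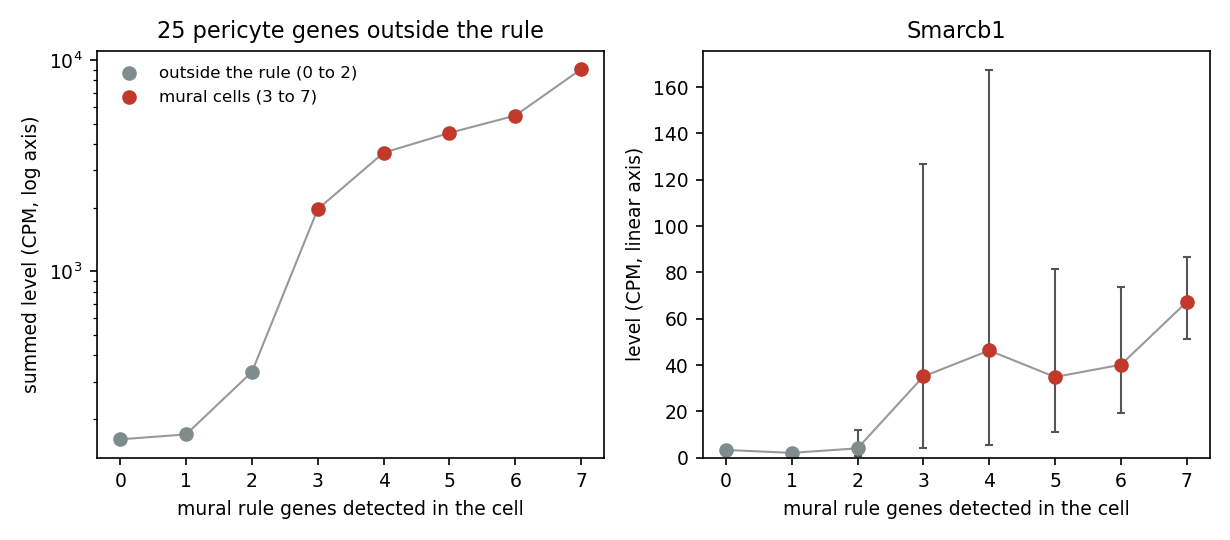
Cells by the number of the 7 rule genes detected (horizontal axis), with the pericyte list outside the rule and Smarcb1 as CPM of the summed cells of each bin, with exact Poisson 95% intervals for Smarcb1. The pericyte list stands at 334 CPM in the cells with 2 rule genes, 1967 CPM in those with 3 (3936 CPM without the 2 deepest cells) and 9035 CPM in those with 7.

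The rule genes themselves chose the cells, so their levels are a description. Rgs5 (chromosome 1, 169655501 to 169695813, plus strand, GRCm38) stood at 10718, 5703 and 14661 CPM in mural cells, at 83.7, 46.9 and 19.1 CPM in endothelial cells and at 3.08, 2.76 and 7.77 CPM in the remaining cells. Vtn, which encodes the adhesion protein vitronectin, stood at 4509, 2583 and 5116 CPM in mural cells. Pdgfrb stood at 658, 850 and 884 CPM. Of the channel subunits, Kcnj8 reached 692, 429 and 884 CPM and Abcc9 reached 1106, 1068 and 966 CPM. The 2 mitochondrial paralogs of the rule, Higd1b and Ndufa4l2, reached 1097, 455 and 1556 CPM and 671, 386 and 1042 CPM. Tumor 2 was the lowest of the 3 for Rgs5, Vtn, Kcnj8, Higd1b and Ndufa4l2. Its deepest mural cells (36386, 18535, 14329 and 11472 UMIs) read only 495, 2050, 907 and 3312 CPM of the 7 rule genes together. Deep cells with low levels also occurred in tumor 1 (36169 UMIs, 5143 CPM) and tumor 3 (22160 UMIs, 451 CPM). The part of such cells in the sums was not tested. Tumor 2 was not the lowest for Abcc9 and Pdgfrb. To read each gene in cells that it had not chosen, the cells were picked again by at least 3 of the other 6 genes. All 7 genes were then higher in these cells than in all others (edgeR quasi-likelihood test on sums per tumor, tumor as block), with log2 differences from 7.79 for Pdgfrb to 8.55 for Kcnj8 and adjusted p-values from 1.49e-11 to 4.6e-10. The 7 calls also held without each tumor in turn.

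Across all genes, 15088 were tested between mural cells and all other cells of the same tumors, and 2690 of them (17.8%) passed an adjusted p of 0.05. Of these, 1570 (10.4%) were higher and 1120 (7.42%) were lower in mural cells, and the median log2 difference over all tested genes was -0.20. Without tumor 1 the lower genes numbered 714. The counts of the lists below are read beside these shares.

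Pericyte genes outside the rule were higher throughout: 25 of 25 passed the test, with a median log2 difference of 6.14. This list was assembled with earlier results of these libraries known and is therefore not independent evidence of its direction. Cox4i2, the lung-type isoform of a cytochrome c oxidase subunit, read 329, 185 and 519 CPM in mural cells against 0.556, 0.988 and 2.76 CPM in all other cells (log2 difference 8.17 ± 0.35 SE, adjusted p = 7.5e-11). Atp13a5, a P-type ATPase used as a marker of brain pericytes, read 368, 180.2 and 469 CPM against 1.21, 0.649 and 2.03 CPM (8.14 ± 0.25, adjusted p = 7.6e-12). In both genes the lowest mural value lay far above the highest value of the other cells. Cd248, which encodes the stromal surface protein endosialin, read 333, 266 and 499.8 CPM against 3.57, 2.94 and 5.02 CPM (6.64 ± 0.22, adjusted p = 9.2e-12). Cspg4, the proteoglycan NG2, read 226, 146 and 275 CPM against 4.52, 5.05 and 5.86 CPM (5.46 ± 0.25, adjusted p = 1.8e-10). Anpep, the aminopeptidase CD13, read 42.5, 47.2 and 40.9 CPM and again did not overlap with the other cells, at 0.624, 0.452 and 0.873 CPM (6.14 ± 0.60, adjusted p = 1.3e-06). The smallest difference of the list was that of Notch3, at 320.3, 292 and 273 CPM against 23.2, 21.1 and 35.2 CPM (3.58 ± 0.22, adjusted p = 5.8e-09). The count of 25 stayed at 25 in every alternative run.

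**Figure D2:**
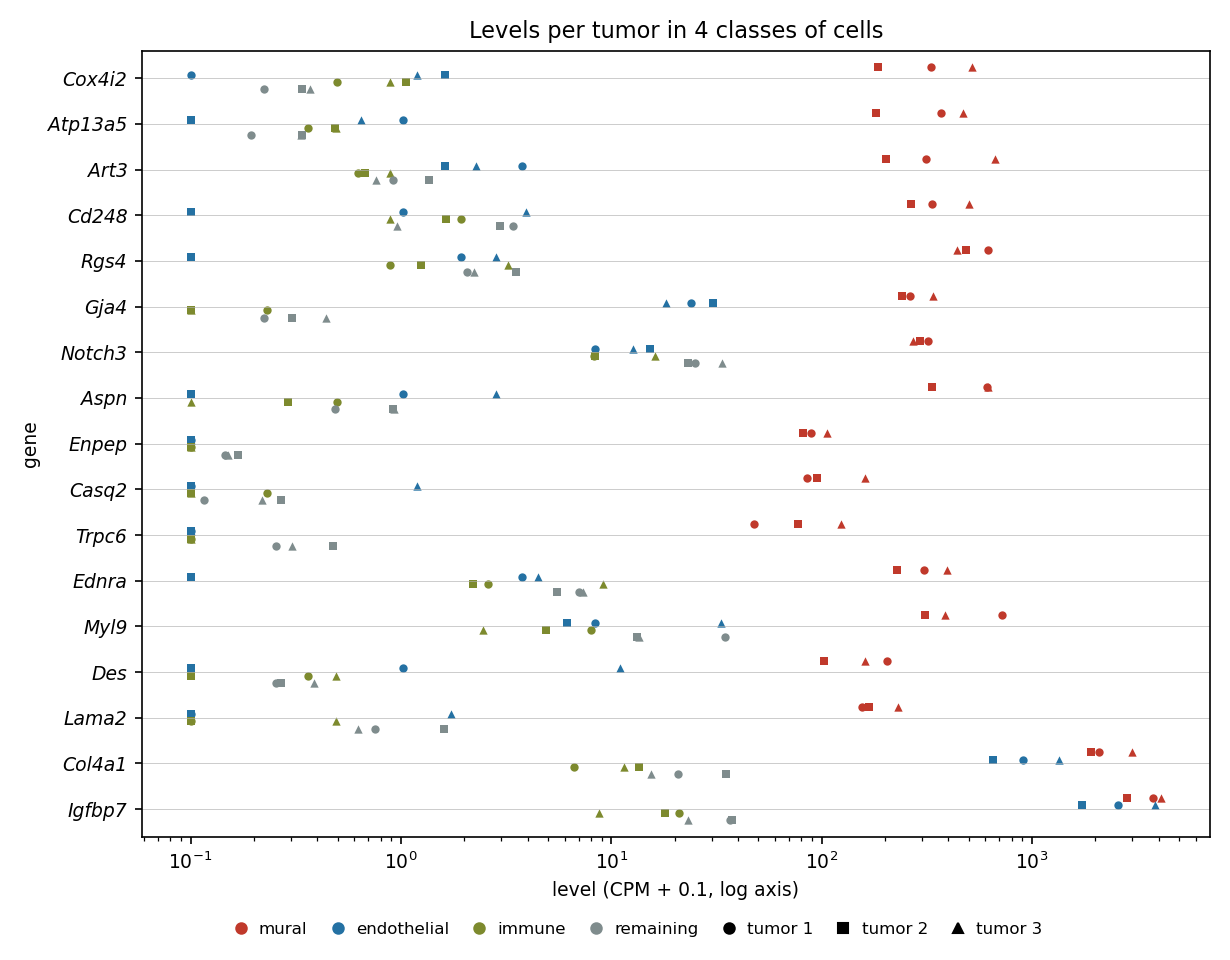
Levels of single genes, in CPM with a small constant added so that 0 can be drawn, on a log axis for mural, endothelial, immune and remaining cells, 1 point per tumor. In mural cells Cox4i2 lies between 185 and 519 CPM and Atp13a5 between 180.2 and 469 CPM in the 3 tumors.

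Of the contractile genes, 19 could be tested and 15 were higher in mural cells, none was lower and 4 did not pass, with a median log2 difference of 3.46. Des, the intermediate filament protein of muscle, read 205, 103 and 160.4 CPM in mural cells against 0.42, 0.536 and 3.41 CPM (7.30 ± 0.52, adjusted p = 3.4e-08). Mylk, the kinase that phosphorylates the myosin light chain, read 356, 185 and 278 CPM against 4.03, 8.47 and 8.57 CPM (5.42 ± 0.34, adjusted p = 6.6e-09). Cald1, the actin-binding protein caldesmon, read 2483, 1528 and 3179.8 CPM against 87.7, 60.3 and 114 CPM (4.84 ± 0.16, adjusted p = 8.3e-12). All 3 genes were higher in mural cells in each tumor. The genes that define mature smooth muscle varied more between the tumors. Acta2, smooth muscle actin, read 453, 81.5 and 160.4 CPM against 19.1, 4.97 and 46.9 CPM (3.52 ± 0.42, adjusted p = 1.5e-05). Tagln, which encodes transgelin, read 388, 34.3 and 102 CPM against 7.61, 7.11 and 31.4 CPM (3.46 ± 0.61, adjusted p = 6.9e-04). Myh11, the smooth muscle myosin heavy chain, read 77.9, 47.2 and 13.6 CPM against 0.448, 0.903 and 6.7 CPM (5.00 ± 0.99, adjusted p = 0.0018). Tumor 1 held the highest mural value of all 3. Cnn1, calponin, was at 0 UMIs in the mural cells of each tumor, against 2.13, 0.762 and 3.88 CPM in all other cells (adjusted p = 0.19). The transcription factors that drive this program in smooth muscle did not pass: Srf read 42.5, 47.2 and 80.2 CPM against 66.6, 62.4 and 83.3 CPM (adjusted p = 0.51), and its partner Myocd read 8.85, 0 and 0 CPM against 0.787, 0.565 and 0.452 CPM (adjusted p = 0.21).

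Since serum response factor binds a 10-base element known as the CArG box, the promoters of the contractile genes were searched for it on both strands (RefSeq, GRCm38.p6, 250 bases before to 50 after the start). The strict form holds 6 inner bases that are each A or T, and the wider form allows 1 of them to be G or C. Of the 20 genes of the list, 17 had a promoter in the RefSeq table, 19 promoters in all. The strict form was found in 1 of the 19 promoters, that of Myl9, and in 535 of all 32851 promoters (1.63%). The wider form was found in 3 of the 19, those of Acta2, Crip1 and Myl9, and in 3280 of all promoters (9.98%). Their promoters are shown because all 3 genes were higher in mural cells, Myl9 at 717, 309 and 386 CPM against 32.3, 12.7 and 27 CPM (4.37 ± 0.21, adjusted p = 3e-10) and Crip1 at 1003, 502 and 677 CPM against 44.2, 54.5 and 138 CPM (3.41 ± 0.31, adjusted p = 6.2e-07). Capitals mark the matches, and each sequence runs 5′ to 3′ on the strand of the gene (Acta2 chr19:34255324-34255623, minus; Crip1 chr12:113151762-113152061, plus; Myl9 chr2:156775214-156775513, plus).
Acta2: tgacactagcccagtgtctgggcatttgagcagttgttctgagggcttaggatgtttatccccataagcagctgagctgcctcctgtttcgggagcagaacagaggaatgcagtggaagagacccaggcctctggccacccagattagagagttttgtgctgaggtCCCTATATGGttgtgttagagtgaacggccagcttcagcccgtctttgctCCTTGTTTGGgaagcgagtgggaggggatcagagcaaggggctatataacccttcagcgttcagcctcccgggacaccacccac
Crip1: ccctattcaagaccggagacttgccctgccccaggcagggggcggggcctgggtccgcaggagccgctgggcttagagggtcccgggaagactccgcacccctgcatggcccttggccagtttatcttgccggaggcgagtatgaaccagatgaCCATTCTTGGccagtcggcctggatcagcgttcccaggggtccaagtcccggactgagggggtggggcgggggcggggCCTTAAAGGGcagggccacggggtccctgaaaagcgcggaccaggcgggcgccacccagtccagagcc
Myl9: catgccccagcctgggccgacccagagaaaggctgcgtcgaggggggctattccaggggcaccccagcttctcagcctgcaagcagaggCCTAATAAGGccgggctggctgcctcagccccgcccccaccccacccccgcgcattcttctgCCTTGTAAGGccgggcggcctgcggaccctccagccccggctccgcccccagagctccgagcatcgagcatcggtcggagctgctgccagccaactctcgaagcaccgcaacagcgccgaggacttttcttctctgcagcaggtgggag
Each promoter held 2 matches. In Acta2 they began 84 and 34 bases before the start, in Crip1 96 and 18 bases and in Myl9 161 and 99 bases. A match describes the sequence only and says nothing of binding in these cells.

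Of the channels and receptors of vascular tone, 16 of 20 tested genes were higher, 1 was lower and 3 did not pass, with a median log2 difference of 5.15. Casq2, the calcium buffer calsequestrin, read 84.9, 94.4 and 160.4 CPM in mural cells against 0.136, 0.282 and 1.09 CPM in all others (8.15 ± 0.40, adjusted p = 3.7e-10). Trpc6, a cation channel opened by diacylglycerol, read 47.8, 77.2 and 123 CPM against 0.163, 0.423 and 0.997 CPM (7.51 ± 0.38, adjusted p = 4.4e-10). Kcnmb1, the auxiliary subunit of the large-conductance calcium-activated potassium channel, read 63.7, 42.9 and 73.4 CPM against 0.19, 0.395 and 0.717 CPM (7.33 ± 0.50, adjusted p = 1.8e-08). Kcnma1, the pore of that channel, had 0 UMIs in the mural cells of each tumor and read 3.28, 14.1 and 22.2 CPM in all other cells, at least 5.76-fold lower against a floor of 3 counts over the group (adjusted p = 0.0041). This call was lost without tumor 3 (adjusted p = 0.084), without the tumor block (0.10), where no endothelial gene was allowed (0.071) and after thinning to 2000 UMIs per cell (0.068), and with at least 2 of 7 rule genes the log2 difference was -0.65 (0.43). Nitric oxide relaxes mural cells through a guanylate cyclase, and both subunits of this enzyme were higher, Gucy1b1 at 262, 210.3 and 384 CPM against 6.04, 7.06 and 4.18 CPM (5.73 ± 0.30, adjusted p = 8.8e-10) and Gucy1a1 at 142, 163 and 273 CPM against 4.98, 5.62 and 2.65 CPM (5.56 ± 0.36, adjusted p = 8.2e-09). Pde5a, the phosphodiesterase that ends the cGMP signal, read 218, 176 and 215 CPM against 9.44, 8.44 and 17.5 CPM (4.24 ± 0.24, adjusted p = 2.2e-09). The 2 endothelin receptors went in opposite directions. Ednra, the receptor that contracts smooth muscle, read 308, 227 and 396 CPM against 6.73, 5.28 and 8.82 CPM (5.56 ± 0.21, adjusted p = 3.8e-11). Ednrb was the lower gene of the list, at 119, 150.2 and 116 CPM against 385, 280.4 and 257 CPM (-1.19 ± 0.20, adjusted p = 4e-04). Against endothelial cells alone, Ednrb was among the higher genes.

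Of the metabolic list, 6 of 13 tested genes were higher, 3 were lower and 4 did not pass, and 3 of those with the largest differences are given here. Enpep, aminopeptidase A, which cleaves angiotensin II, read 88.5, 81.5 and 106 CPM against 0.19, 0.198 and 0.436 CPM (8.48 ± 0.36, adjusted p = 7.1e-11). Ggt1, the gamma-glutamyltransferase of the glutathione cycle, read 79.6, 72.9 and 128 CPM against 0.203, 0.339 and 0.421 CPM (8.31 ± 0.35, adjusted p = 6.7e-11). Aspn, a small leucine-rich proteoglycan, read 609, 335 and 616 CPM against 0.827, 1.13 and 3.91 CPM (8.38 ± 0.38, adjusted p = 1.6e-10). No value of the mural cells overlapped with the other cells in these 3 genes.

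Basement membrane genes were higher in 21 of 22 cases, with a median log2 difference of 3.54, and only Lama5 did not pass. Lama2, the laminin chain typical of mural and glial basement membranes, read 156, 167 and 230.3 CPM against 0.787, 1.58 and 1.75 CPM (7.22 ± 0.28, adjusted p = 4e-11). Lamc3 read 53.1, 38.6 and 107 CPM against 0.42, 0.452 and 0.935 CPM (6.87 ± 0.40, adjusted p = 2.3e-09). The proteoglycan biglycan, Bgn, read 573, 386 and 858 CPM against 5.59, 4.69 and 19.9 CPM (6.22 ± 0.26, adjusted p = 6.3e-11). The collagen chains that make up the network itself were also far apart from other cells. Col4a1 read 2074, 1905 and 2972 CPM against 38.3, 48.9 and 80.0 CPM (5.50 ± 0.18, adjusted p = 8.3e-12). Lama5, a chain known from mature endothelial basement membranes, read 7.08, 0 and 0 CPM against 1, 2.23 and 3.49 CPM (adjusted p = 0.81).

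Fibrillar matrix and fibroblast genes were mixed: 7 of 17 tested were higher, 3 were lower and 7 did not pass, and without tumor 1 the lower genes fell to 1. Col6a3, a chain of the microfibrillar collagen VI, read 21.2, 21.5 and 64.8 CPM against 1.98, 1.72 and 0.452 CPM (4.89 ± 0.80, adjusted p = 3.4e-04). Col1a2 read 313, 395 and 208 CPM against 80.5, 65.9 and 9.61 CPM (3.04 ± 0.35, adjusted p = 9.1e-06). Col3a1 read 320.3, 352 and 203 CPM against 111, 133 and 20.6 CPM (2.14 ± 0.30, adjusted p = 7.5e-05), a call lost without the tumor block (adjusted p = 0.083). Dcn, the collagen-binding proteoglycan decorin, read 219, 8.58 and 49.5 CPM against 5.1, 7.31 and 0.919 CPM (4.67 ± 0.64, adjusted p = 6.2e-05). For Dcn the value of tumor 2 lay close to that of the other cells. Pdgfra, the receptor that marks fibroblasts, read 3.54, 12.9 and 1.71 CPM in mural cells, in 4 cells in all, against 23.2, 26.8 and 8.74 CPM (-1.91 ± 0.55, adjusted p = 0.024, and 0.31 without tumor 1). The difference of Pdgfra shrank to -0.12 with at least 2 of 7 rule genes (adjusted p = 0.91) and to -0.87 after thinning (0.52).

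Of the PDGF genes outside the rule 3 of 7 were higher, 2 were lower and 2 did not pass. The lower genes fell to 0 without tumor 1. Pdgfb, the ligand that endothelial cells send to Pdgfrb, read 0, 4.29 and 3.41 CPM in mural cells against 20.4, 20.9 and 12.4 CPM (-2.86 ± 0.72, adjusted p = 0.011, and 0.17 without tumor 1). Pdgfa, the ligand of the alpha receptor, read 129, 120.2 and 78.5 CPM against 25.4, 33.2 and 10.8 CPM (2.45 ± 0.26, adjusted p = 3.3e-06). Lrp1, a co-receptor that modulates signaling through Pdgfrb, read 232, 348 and 162 CPM against 88.9, 143 and 98 CPM (1.21 ± 0.19, adjusted p = 2.9e-04).

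In the Notch pathway 7 of 16 genes were higher, 3 were lower and 6 did not pass, with a median log2 difference of -0.05. The receptor Notch3 is given above. Its targets differed from each other. Heyl read 126, 94.4 and 131 CPM against 1.15, 1.07 and 1.82 CPM (6.54 ± 0.29, adjusted p = 1.3e-10). Hey2 read 44.2, 60.1 and 49.5 CPM against 2.14, 3.36 and 9.82 CPM (3.64 ± 0.44, adjusted p = 1.7e-05). Hes1, a target used by neural progenitors too, read 234, 210.3 and 345 CPM against 193, 184 and 383 CPM and did not pass (adjusted p = 0.55). Among the ligands, Jag1 was higher at 165, 313 and 131 CPM against 46.1, 69.9 and 22.2 CPM (2.26 ± 0.21, adjusted p = 8.4e-07). Dll1, a ligand of neural progenitors, was lower at 14.2, 17.2 and 8.53 CPM against 94.2, 83.2 and 86.9 CPM (-2.75 ± 0.32, adjusted p = 9e-06).

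Of the angiopoietin and VEGF genes 4 of 11 were higher, none was lower and 7 did not pass. Angptl2 read 40.7, 34.3 and 106 CPM against 2.48, 2.54 and 2.42 CPM (4.62 ± 0.42, adjusted p = 6.5e-07), and Pgf, placental growth factor, read 70.8, 34.3 and 148 CPM against 3.47, 4.09 and 9.54 CPM (3.99 ± 0.31, adjusted p = 1e-07). Vegfa read 33.6, 64.4 and 18.8 CPM against 25.9, 38.7 and 57.8 CPM and did not pass (adjusted p = 0.93). Of the TGF-β and BMP genes 11 of 21 were higher, 1 was lower and 9 did not pass. The higher genes numbered 7 without the tumor block, and the lower ones 2 without tumor 2 and 2 without tumor 3. Bmp5 read 17.7, 42.9 and 44.4 CPM against 7.84, 4.29 and 0.499 CPM (3.72 ± 0.81, adjusted p = 0.0038, and 0.060 without the tumor block). Its 3 mural values lay above those of the other cells. The ligand Tgfb1 read 156, 167 and 271 CPM against 30.6, 38.4 and 17.6 CPM (2.92 ± 0.31, adjusted p = 3.5e-06), and the co-receptor Eng read 127, 55.8 and 155 CPM against 11.7, 8.75 and 24 CPM (3.05 ± 0.26, adjusted p = 3.4e-07).

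Transcription factors known from mural cells were higher in 13 of 20 tested cases, none was lower and 7 did not pass, with a median log2 difference of 2.51. Foxs1 read 83.2, 94.4 and 69.9 CPM against 0.38, 0.311 and 0.904 CPM (7.37 ± 0.42, adjusted p = 2.1e-09). Foxd1, a factor of the kidney stroma that gives rise to pericytes, read 115, 68.7 and 71.6 CPM against 1.59, 1.36 and 0.623 CPM (6.33 ± 0.34, adjusted p = 1.1e-09). Tbx18, used in mouse genetics to label mural cells, read 35.4, 25.7 and 44.4 CPM against 1.13, 1.1 and 0.857 CPM (5.20 ± 0.61, adjusted p = 1.1e-05). The mural values of these 3 factors did not overlap with the other cells. Nr2f2, a factor of venous and mesenchymal cells, read 499, 463 and 281 CPM against 64.9, 69.4 and 14.9 CPM (3.38 ± 0.26, adjusted p = 9.4e-08).

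Transporters passed in all 9 tested cases, 8 higher and 1 lower, with a median log2 difference of 4.03. Slc38a11, a predicted amino acid transporter, read 124, 90.1 and 46.1 CPM against 0.339, 0.254 and 0.499 CPM (7.86 ± 0.44, adjusted p = 1.7e-09). Slc6a20a, a proline transporter, read 83.2, 68.7 and 20.5 CPM against 0.963, 1.38 and 0.545 CPM (5.90 ± 0.48, adjusted p = 1.7e-07). Slc30a10, a manganese exporter, read 84.9, 77.2 and 128 CPM against 3.5, 4.01 and 1.04 CPM (5.38 ± 0.45, adjusted p = 2.4e-07). The glial glutamate transporter Slc1a3 was the lower gene, at 14.2, 68.7 and 39.2 CPM against 110.2, 138 and 53 CPM (-1.27 ± 0.35, adjusted p = 0.019, and 0.29 without tumor 1).

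Of the respiratory chain paralogs 1 of 9 was higher (Cox4i2, above), 1 was lower and 7 did not pass. Ndufa4, the ubiquitous counterpart of the rule gene Ndufa4l2, read 297, 283 and 155 CPM in mural cells against 776, 743 and 688 CPM (-1.56 ± 0.18, adjusted p = 1e-05). Cox4i1, the ubiquitous counterpart of Cox4i2, read 1085, 1184 and 1027 CPM against 1247, 1255 and 922 CPM, with a log2 difference of 0.03 ± 0.14 (adjusted p = 0.91). In the hypoxia list 3 of 14 were higher, none was lower and 11 did not pass. Epas1, which encodes the hypoxia-inducible factor HIF-2 alpha, read 416, 309 and 541 CPM against 21.4, 27.6 and 28.9 CPM (4.09 ± 0.22, adjusted p = 1e-09). Ankrd37, a direct target of the hypoxia-inducible factors, read 60.2, 8.58 and 20.5 CPM against 7.49, 6.78 and 6.26 CPM (2.14 ± 0.49, adjusted p = 0.0059, and 0.41 without tumor 1). Ldha, which makes lactate from pyruvate, read 272, 202 and 235 CPM against 101, 105 and 119 CPM (1.21 ± 0.19, adjusted p = 2.6e-04). The glucose transporter Slc2a1 read 15.9, 38.6 and 25.6 CPM against 38.5, 53.4 and 45.6 CPM (adjusted p = 0.083). With at least 2 of 7 rule genes Slc2a1 passed as lower (-1.13, adjusted p = 0.0046).

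Chemokines, adhesion molecules and antigen presentation genes were higher in 10 of 19 tested cases, lower in 1, and 8 did not pass. The count of higher genes was 6 without the tumor block and ranged from 5 to 15 over all alternatives. Cxcl1, which attracts neutrophils, read 931, 1150.0 and 1273 CPM against 6.25, 19.2 and 9.05 CPM (6.84 ± 0.28, adjusted p = 4.8e-11). Ccl2, which attracts monocytes, read 816, 1613 and 467 CPM against 21.1, 52.8 and 17.9 CPM (5.05 ± 0.19, adjusted p = 3.6e-11). Il6 read 126, 107 and 164 CPM against 1.23, 3.75 and 1.15 CPM (6.37 ± 0.41, adjusted p = 8.2e-09), all of it from 26 of the 236 cells. H2-Aa, a class II antigen presentation gene of immune cells, passed on 1 cell of tumor 3 (0, 0 and 143 CPM, adjusted p = 0.042). Vcam1 was lower at 53.1, 30.0 and 18.8 CPM against 149, 117 and 107 CPM (-1.84 ± 0.26, adjusted p = 8.9e-05). Genes known to respond to enzymatic dissociation moved in the same cells: 11 of 14 were higher, none was lower and 3 did not pass, with a median log2 difference of 1.47. Among them were Hspa1a, a heat shock protein, at 495, 236 and 188 CPM against 17.2, 13.3 and 13.3 CPM (4.37 ± 0.24, adjusted p = 1.4e-09), its neighbor and close copy Hspa1b (3.88 ± 0.25, adjusted p = 1e-08), whose reads may be shared with it, and the immediate early gene Junb at 1941, 1352 and 1694 CPM against 306, 337 and 241 CPM (2.57 ± 0.18, adjusted p = 1.9e-08). Fos itself read 2792, 1837 and 1696 CPM against 1848, 2258 and 1764 CPM (adjusted p = 0.56). The part of this response in the chemokine values was not tested.

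Outside the lists, the 12 genes with the largest differences among those that were higher in all 3 tumors were Ccl11, Pla1a, Slc16a12, Chp2, Pla2r1, Sod3, Il34, Tbxa2r, Iigp1, Gm867, Carmn and Mrvi1. Ccl11 (chromosome 11, 82057823 to 82062955, plus strand), the eosinophil chemokine eotaxin, led with 279.6, 116 and 276 CPM in mural cells against 0.136, 0.395 and 0.686 CPM (9.32 ± 0.45, adjusted p = 2.8e-10). Pla1a, a phosphatidylserine phospholipase, read 92, 124 and 143 CPM against 0.271, 0.423 and 0.826 CPM (8.02 ± 0.33, adjusted p = 5e-11). Il34, a ligand of the macrophage receptor Csf1r, read 193, 176 and 131 CPM against 0.719, 1.19 and 1.06 CPM (7.49 ± 0.31, adjusted p = 5.7e-11). Several of the others belong to known mural functions. Tbxa2r, the receptor of the vasoconstrictor thromboxane A2, read 67.2, 98.7 and 203 CPM against 0.326, 0.339 and 1.98 CPM (7.42 ± 0.34, adjusted p = 1.8e-10). Carmn, the smooth muscle long noncoding RNA that hosts a pair of microRNAs, read 42.5, 64.4 and 78.5 CPM against 0.217, 0.508 and 0.577 CPM (7.28 ± 0.45, adjusted p = 5.6e-09). Mrvi1, a substrate of the cGMP-dependent kinase, read 58.4, 25.7 and 39.2 CPM against 0.095, 0.198 and 0.779 CPM (7.25 ± 0.80, adjusted p = 5.8e-06). Sod3, the extracellular superoxide dismutase, read 333, 210.3 and 150.1 CPM against 0.963, 1.3 and 1.36 CPM (7.61 ± 0.33, adjusted p = 9.7e-11). The log2 differences of the remaining 5 genes ran from 7.29 (Gm867) to 7.85 (Slc16a12).

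The 6 lower genes named by the same rule, 1 of them the channel gene Kcnma1 given above, had 0 UMIs in the mural cells of all 3 tumors, so that only bounds can be given. Tal2, a helix-loop-helix factor of midbrain GABA neurons, read 16.1, 8.38 and 13.4 CPM in all other cells and was at least 6.24-fold lower (adjusted p = 0.0032). The semaphorin Sema3c read 10.2, 18.7 and 6.84 CPM and was at least 4.94-fold lower (adjusted p = 0.0066). Rhobtb1 read 8.65, 11.1 and 9.44 CPM and was at least 4.36-fold lower (adjusted p = 0.01). Of the 6 calls, 5 were lost after thinning to 2000 UMIs per cell, those of Tal2 (adjusted p = 0.055), Sema3c (0.26), Rhobtb1 (0.40), Kcnma1 (0.068) and AC119264.1 (0.16). Spsb4 and the unnamed transcript AC119264.1 were at least 4.36-fold and 4.20-fold lower (adjusted p = 0.013 for both). Without tumor 3 both calls were lost, with adjusted p-values of 0.28 for Spsb4 and 0.10 for AC119264.1.

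**Figure D3:**
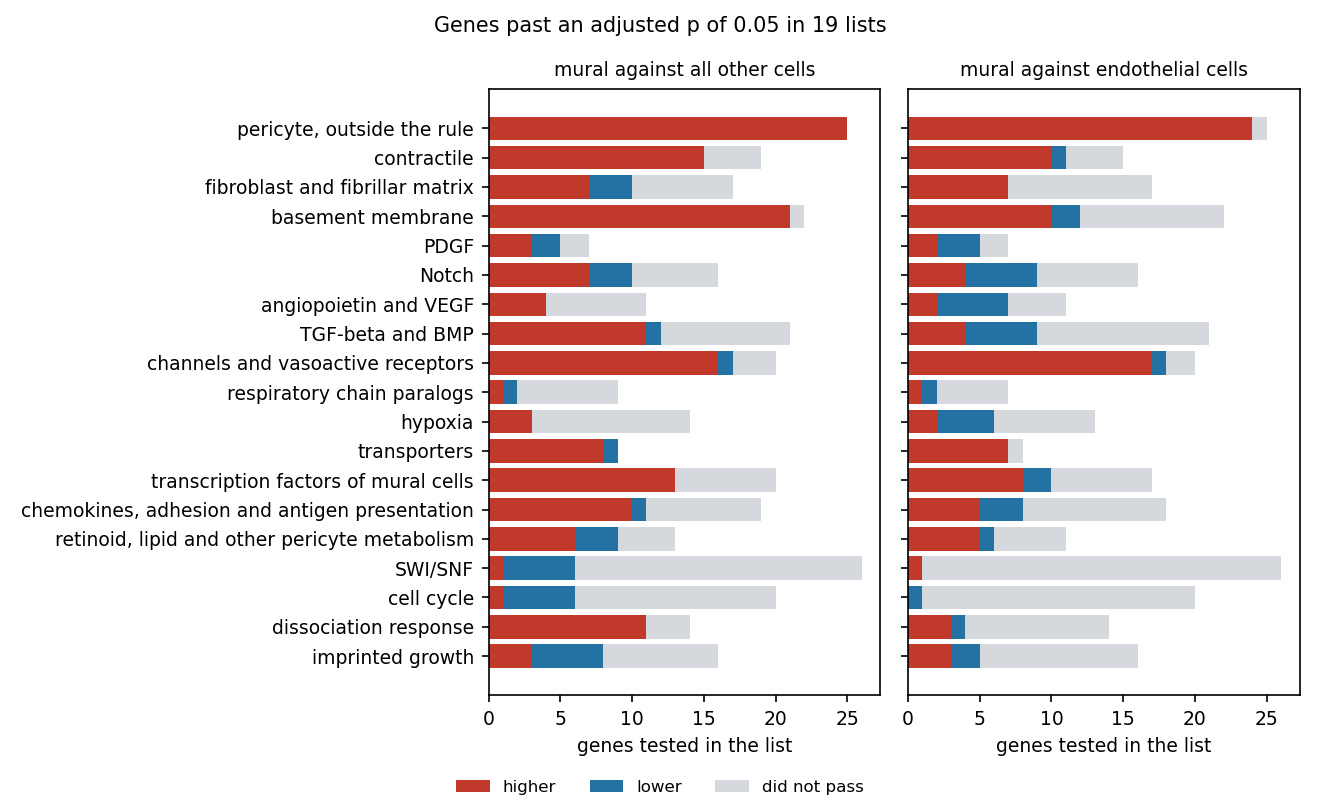
Number of tested genes of each list that were higher, lower or did not pass in mural cells, against all other cells of the same tumors (left) and against their endothelial cells (right). The pericyte list stands at 25 of 25 and 24 of 25 higher and the basement membrane list at 21 of 22 and 10 of 22.

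Smarcb1 (chromosome 10, 75896769 to 75921617, minus strand, GRCm38) is the gene targeted in these mice. Its reads come from the 3′ end of the transcript, and which exons the recombination removes is not given in the sources used here, so the level reports transcript and not an intact allele. In mural cells Smarcb1 read 58.4, 42.9 and 61.4 CPM, from 33, 10 and 36 UMIs. In endothelial cells it read 35.9, 30.3 and 36.0 CPM, in immune cells 23.4, 15.9 and 17.6 CPM, and in the remaining cells 1.90, 2.73 and 0.846 CPM. The mural value lay above that of each other class in all 3 tumors, but its Poisson intervals overlapped those of endothelial cells. Against all other cells (4.73, 5.34 and 3.15 CPM) the log2 difference was 3.78 ± 0.38 (adjusted p = 1.65e-06), whereas against endothelial cells it was 0.66 ± 0.39 and did not pass (adjusted p = 0.32). Per cell, 21.7%, 13.3% and 27.9% of mural cells held a Smarcb1 UMI, against 1.06%, 1.14% and 0.801% of the remaining cells, which were deeper in tumors 1 and 3. At a fixed depth of 2000 UMIs per cell the mural shares were 9.20%, 8.82% and 11.6% of 87, 34 and 43 cells, and those of the remaining cells 0.491%, 0.611% and 0.217%.

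**Figure D4:**
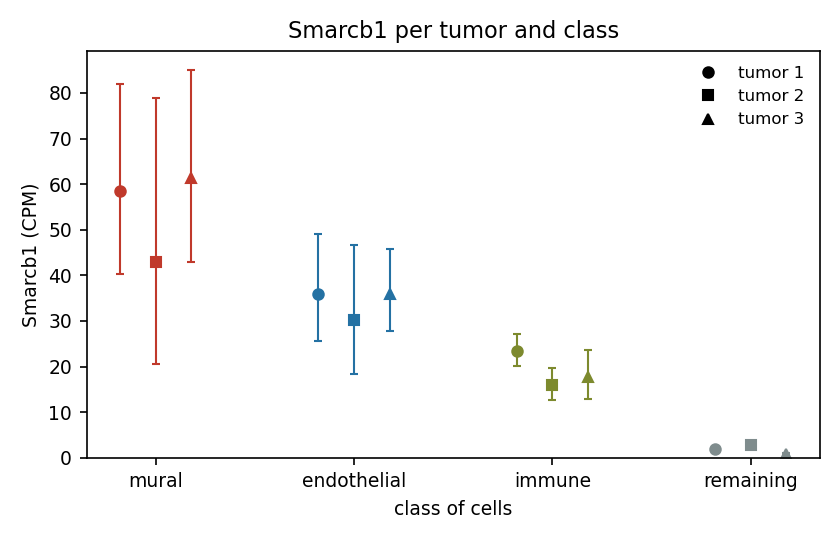
Smarcb1 in CPM per tumor and class of cells, with exact Poisson 95% intervals on the summed UMIs. Mural values of 58.4, 42.9 and 61.4 CPM contrast with 1.90, 2.73 and 0.846 CPM in the remaining cells.

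Of the 26 genes of the SWI/SNF list, Smarcb1 was the 1 higher gene, 5 were lower and 20 did not pass, with a median log2 difference of -0.37, and without tumor 1 the lower genes fell to 2. Bcl7a read 40.7, 42.9 and 15.4 CPM against 111, 117 and 105 CPM (-1.77 ± 0.29, adjusted p = 2.9e-04). Smarcc1, a scaffold subunit, read 99.1, 81.5 and 88.7 CPM against 199.8, 183 and 213 CPM (-1.07 ± 0.20, adjusted p = 0.001). The catalytic subunit Smarca4 read 76.1, 90.1 and 81.9 CPM against 165, 132 and 165 CPM (-0.84 ± 0.21, adjusted p = 0.0097, and 0.12 without tumor 1). Smarcd3 and Smarcd1 were lower too (adjusted p = 0.034 and 0.01), and both calls were lost without tumor 1 (0.089 and 0.056). With likely doublets left out, 9 genes of the list were lower.

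Cell cycle genes were higher in 1 of 20 cases and lower in 5, and 14 did not pass. The higher gene, the cell cycle inhibitor Cdkn1a (0.86 ± 0.21, adjusted p = 0.0087), did not pass without tumor 1 (adjusted p = 0.14), without the tumor block (0.31), after thinning (0.11) or where no endothelial gene was allowed in a mural cell (0.58). The lower genes numbered 10 without tumor 2 and ranged from 1 to 12 over all alternatives. Ccnb1, the cyclin of mitosis, was lower at 15.9, 12.9 and 13.6 CPM against 41.7, 30.1 and 43.5 CPM (-1.38 ± 0.34, adjusted p = 0.0085), a call lost without tumor 1 (0.059), after thinning (0.17), with no endothelial gene allowed (-0.21, adjusted p = 0.85) and with at least 2 of 7 rule genes (-0.28, 0.69). Cenpf, a kinetochore protein, read 37.2, 51.5 and 64.8 CPM against 116, 84.1 and 186 CPM (-1.27 ± 0.24, adjusted p = 0.0012), a call lost without the tumor block (0.064), after thinning (0.16), with no endothelial gene allowed (-0.48, adjusted p = 0.42) and with at least 2 of 7 rule genes (-0.52, 0.27). Ccnd1, the cyclin of early G1, was lower at 111, 116 and 259 CPM against 297, 242 and 458 CPM (-1.01 ± 0.19, adjusted p = 0.001, and 0.18 without the tumor block). Top2a read 92, 215 and 162 CPM against 245, 156 and 331 CPM (-0.61 ± 0.27, adjusted p = 0.14, and 5.7e-04 without tumor 2). Without the 44 mural cells that carried at least 2 immune or at least 4 neural markers, this became -3.03 (adjusted p = 1.25e-19). At 2000 UMIs per cell, Mki67 or Top2a was detected in 6.90%, 11.8% and 11.6% of mural cells and in 14.2%, 11.8% and 21.6% of the remaining cells. The intervals of the mural shares overlapped those of the remaining cells in all 3 tumors. Among imprinted and growth factor genes 3 of 16 were higher, 5 were lower and 8 did not pass, and the lower genes numbered 8 without tumor 2. H19 read 3.54, 0 and 0 CPM against 91.4, 52.7 and 10.1 CPM (-5.07 ± 0.59, adjusted p = 9.3e-06). With at least 2 of 7 rule genes its difference turned to 0.91 (adjusted p = 0.48). Igfbp7, a secreted protein of vessels, read 3758, 2832 and 4109.6 CPM against 81.1, 80.2 and 190.0 CPM (5.11 ± 0.20, adjusted p = 4.1e-11).

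To ask which of these genes set mural cells apart within the vessel, they were compared with the endothelial cells of the same tumors. Of 12584 genes tested, 1906 (15.1%) passed, 896 (7.12%) higher and 1010 (8.03%) lower in mural cells. Without tumor 1 these counts fell to 344 and 320. Of the pericyte genes 24 of 25 were higher, with a median log2 difference of 6.18. The exception was Mcam, the adhesion molecule CD146, at 142, 223 and 331 CPM in mural and 102, 36.3 and 168 CPM in endothelial cells (1.08 ± 0.44, adjusted p = 0.14). Mcam passed with doublet candidates left out (adjusted p = 0.028). Channels and receptors were higher in 17 of 20 cases and lower in 1. Contractile genes were higher in 10 of 15 tested cases and lower in 1, and 4 did not pass. Without tumor 1, 5 were higher and 0 lower. The lower gene was the smooth muscle gene Smtn, at 40.7, 55.8 and 34.1 CPM in mural and 121, 83.2 and 99.3 CPM in endothelial cells (-1.34 ± 0.29, adjusted p = 0.0092). The call of Smtn was lost without tumor 1 (adjusted p = 0.15), without tumor 3 (0.055) and with doublet candidates left out (0.06). Basement membrane genes, which both cell types make, were higher in 10 of 22 cases and lower in 2, and the higher genes fell to 3 without tumor 1.

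The largest differences on the mural side were genes without a UMI in the endothelial cells of any tumor, so each is a lower bound against a floor of 3 counts over the group. Pla1a was at least 142-fold higher, Enpep 113-fold, Trpc6 101-fold and Gm867 100-fold. Carmn was at least 73.3-fold, Kcnmb1 76.7-fold and Cysltr2, a leukotriene receptor, 46.6-fold higher. The calls of Gm867 and Kcnmb1 were lost without tumor 1 (adjusted p = 0.15 and 0.06). On the endothelial side the 6 largest were Edn1, Cyyr1, Sema3c, Rassf9, Paqr5 and Dll4, all at 0 UMIs in mural cells. Cldn5, Pecam1, Flt1 and the mural rule genes had chosen both classes, and cells that met both rules were in neither. Differences in genes detected together with these may therefore be set in part by that choice, on both sides. The size of that part was not tested. Edn1, the vasoconstrictor endothelin 1, whose receptor Ednra was high in mural cells, read 328, 277 and 50.2 CPM in endothelial cells and was at least 81.5-fold lower in mural cells (adjusted p = 0.0063, and 0.14 without tumor 1). Dll4, the endothelial Notch ligand, read 109, 68.1 and 143 CPM and was at least 54.8-fold lower (adjusted p = 3.4e-05). Cyyr1, Sema3c, Rassf9 and Paqr5 were at least 75.7-fold, 76.3-fold, 61.1-fold and 52.5-fold lower.

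In the lists of signals between the 2 cell types, genes passed in both directions. The choice of both classes by endothelial and mural genes may set part of these differences too. Of the PDGF genes 2 of 7 were higher in mural cells and 3 lower, and without tumor 1 these were 0 and 1. Of the angiopoietin and VEGF genes 2 of 11 were higher and 5 lower (1 and 3 without tumor 1). Of the Notch genes 4 of 16 were higher and 5 lower (3 and 3 without tumor 1), and of the TGF-beta and BMP genes 4 of 21 were higher and 5 lower (2 and 3 without tumor 1). Pdgfb read 257, 188 and 234 CPM in endothelial cells (-6.72 ± 0.65, adjusted p = 7.8e-05). The angiopoietin receptor Tek read 192, 188 and 101 CPM in endothelial and 0, 4.29 and 15.4 CPM in mural cells (-4.39 ± 0.65, adjusted p = 9.7e-04). Its ligand Angpt1 read 30.1, 34.3 and 11.9 CPM in mural and 0.92, 6.05 and 2.18 CPM in endothelial cells (3.14 ± 0.54, adjusted p = 0.0024, and 0.067 without tumor 1). The VEGF receptor Kdr read 684, 348 and 649.9 CPM in endothelial cells and 8.85, 17.2 and 6.82 CPM in mural cells (-5.93 ± 0.39, adjusted p = 9.1e-06). Jag1, the Notch ligand given above, was 0.99 ± 0.28 higher in mural cells (adjusted p = 0.038), a call lost without any 1 of the tumors (0.14, 0.13 and 0.073). The perlecan gene Hspg2 was lower in mural cells at 54.9, 72.9 and 87 CPM against 181, 145 and 267 CPM (-1.52 ± 0.20, adjusted p = 4.5e-04).

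Counts for the other lists are given without a test between lists. Fibroblast genes were higher in 7 of 17 cases, and in 1 without tumor 1. Transporters were higher in 7 of 8 cases, transcription factors in 8 of 17 (2 were lower) and metabolic genes in 5 of 11 (1 was lower). Chemokine and antigen presentation genes were higher in 5 of 18 cases and lower in 3, but without tumor 1 or without tumor 2 the higher genes numbered 3. Hypoxia genes were higher in 2 of 13 cases and lower in 4, and these were 0 and 2 without tumor 1 and 0 and 1 without tumor 2. Imprinted and growth factor genes were higher in 3 of 16 cases (0 without tumor 1) and lower in 2, and of the respiratory chain paralogs 1 of 7 was higher and 1 lower. Of the cell cycle genes 0 of 20 were higher and 1 was lower, Cdkn1a, at 133, 159 and 58 CPM in mural and 569, 442 and 337 CPM in endothelial cells (-2.11 ± 0.27, adjusted p = 4.2e-04). Over the alternatives 0 to 4 of these genes were higher and 1 to 3 lower. Dissociation genes were higher in 3 of 14 cases and lower in 1, with 1 to 7 higher and 0 to 2 lower over the alternatives. Junb read 1439, 1011 and 828 CPM in endothelial cells and did not pass (0.59 ± 0.20, adjusted p = 0.077). It passed after thinning (0.008) and with doublet candidates left out (0.008). Of the SWI/SNF genes 1 of 26 was higher and none was lower. Over the alternatives 0 to 2 were higher and 0 to 5 lower. The call of the higher gene, Bcl7c, was lost without tumor 1 (adjusted p = 0.089), without tumor 3 (0.093) and after thinning (0.25). The unadjusted p was under 0.05 for 3452 of all genes tested.

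Markers of other cell types were present in the mural sums. The 12 endothelial markers, 3 of them used by the rule, summed to 527, 1180 and 771 CPM in mural cells, against 13820, 11846 and 9104 CPM in endothelial cells. Of the 9 tested against all other cells, 3 were higher, 4 were lower and 2 did not pass. The rule limits endothelial genes in mural cells, so the gap to endothelial cells and the lower calls may be set in part by it. Emcn, an endothelial sialomucin, was among the higher ones at 147, 154 and 181 CPM against 3.89, 3.39 and 8.62 CPM (5.09 ± 0.27, adjusted p = 1.1e-09), and did not pass against endothelial cells at 178, 109 and 229.7 CPM (-0.13 ± 0.26, adjusted p = 0.82). Cdh5, the cadherin that defines endothelium, was at 0, 4.29 and 1.71 CPM against 8.78, 10.7 and 13.3 CPM (-2.82 ± 0.87, adjusted p = 0.034). The call of Cdh5 was lost without tumor 1 (adjusted p = 0.23) and without tumor 3 (0.15). It was also lost with at least 4 of 7 rule genes (0.052) and with doublet candidates left out (0.062). After thinning the difference turned to 0.20 (adjusted p = 0.92). The 12 immune markers summed to 149, 1373 and 1762 CPM in mural cells against 22142, 18162 and 24462 CPM in immune cells, 5 of 12 being lower than in all other cells and none higher. A single cell held 228 of the 320 immune marker UMIs of tumor 2 and another 971 of the 1033 of tumor 3. With doublet candidates left out the sums were 115, 182 and 129 CPM. Of the 12 immune markers, 6 had also chosen the immune cells and the candidates. The gap to the immune cells and the fall after the cut are therefore set in part by that choice. The 12 neural markers summed to 1488, 2141 and 1208 CPM against 4214, 3884 and 2605 CPM in the remaining cells, with 8 lower and 1 higher, Nes, an intermediate filament gene shared by neural progenitors and vascular cells, whose call was lost without tumor 3 (adjusted p = 0.056). Sox2 read 117, 85.8 and 32.4 CPM against 327, 270.1 and 355 CPM (-2.06 ± 0.30, adjusted p = 9.7e-05). Of the oligodendrocyte markers 4 of 8 were lower and none was higher, the 6 astrocyte markers did not pass, and all 3 tested red blood cell markers were lower. Free RNA and cells caught in 1 droplet can both give such counts, and their part was not tested.

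Mural cells also varied among themselves. At least 2 of the contractile genes Acta2, Tagln and Myh11 were detected in 16, 3 and 11 cells, 30 in all, and at least 1 of them in 28, 15 and 21 cells, 64 in all. With 3 such cells in tumor 2 the stricter class was not tested. Cells with at least 1 gene were deeper, with median UMIs of 4511, 3745 and 9093 against 3156, 1919 and 2271 in the other mural cells. At 2000 UMIs per cell Acta2 was detected in 13.8%, 11.8% and 20.9% of mural cells. The same share was 0.283%, 0% and 1.28% of immune cells, which should lack it. Immune cells had median depths of 4101.5, 6234 and 2524 UMIs before thinning.

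Between the 64 contractile cells and the other mural cells, 3743 genes were tested and 122 passed (3.26%), of which 72 (1.92%) were higher and 50 (1.34%) were lower. These counts were not stable: without tumor 2 they were 1 and 0 (552 genes at an unadjusted p under 0.05), without tumor 1 the higher genes numbered 28, and without tumor 3 they were 35 and 22. The largest differences on the contractile side were Crip1, Bcam, Tpm2, Cavin1, Il6 and Ctgf. Crip1, a small LIM-domain protein, read 2729, 1003 and 1449 CPM against 353, 337 and 194 CPM (2.59 ± 0.26, adjusted p = 1.2e-04). Tpm2, the beta chain of tropomyosin, read 349, 86.4 and 394 CPM against 73.1, 40.0 and 49.9 CPM (2.44 ± 0.33, adjusted p = 0.0012). Both genes were higher in the contractile cells of each tumor. Of the pericyte list, Notch3 was among 3 of 24 tested genes that were higher, at 485, 571 and 381 CPM against 258, 199.8 and 205 CPM (1.10 ± 0.22, adjusted p = 0.013). On the other side the 6 largest differences were C1qa, Pou3f2, C1qb, Tyrobp, Fcer1g and Top2a, that is, 4 immune genes, a neural transcription factor and a cell cycle gene. C1qa read 12.9, 69.2 and 0 CPM in contractile and 19.5, 285 and 352 CPM in other mural cells (-3.68 ± 0.71, adjusted p = 0.01). The immune markers thus moved with this split, and their part in the counts was not tested.

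Fibroblast markers were found in some mural cells. At least 2 of Dcn, Lum, Col1a1, Col1a2 and Pdgfra were detected in 35, 16 and 12 cells and at least 3 in 13, 0 and 1 cells. In all, 9 cells combined at least 2 fibroblast with at least 2 contractile genes. At 2000 UMIs per cell Dcn was detected in 20.7%, 0% and 9.30% of mural cells, where 0 of 34 cells in tumor 2, read against a floor of 3 counts, allows a share of cells with a UMI of up to 8.82% (exact Clopper-Pearson upper bound 10.3%). Before thinning, Dcn was detected in 32 of 115, 1 of 60 and 10 of 61 mural cells. In immune cells the shares were 0.424%, 0% and 0%. Cox4i2 was found in 50.6%, 55.9% and 51.2% of mural cells at this depth.

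Between the tumors, which are single animals, values of mural cells can only be set side by side. Some fibroblast and contractile genes were highest in tumor 1, with Dcn at 219, 8.58 and 49.5 CPM, Tagln at 388, 34.3 and 102 CPM and Acta2 at 453, 81.5 and 160.4 CPM. None of Acta2, Tagln and Myh11 was detected in 87, 45 and 40 mural cells of tumors 1, 2 and 3. In tumor 1 single cells of 8234 and 9269 UMIs read 20403 and 13162 CPM of these genes together and weigh heavily in its sum. Col1a1 read 225, 210.3 and 25.6 CPM and was lowest in tumor 3. Other genes of these lists were highest elsewhere. Cald1 ranged from 1528 CPM in tumor 2 to 3180 CPM in tumor 3, and Tpm2 from 51.5 CPM in tumor 2 to 183 CPM in tumor 3. Col1a2 ranged from 208 CPM in tumor 3 to 395 CPM in tumor 2, and Col3a1 from 203 CPM in tumor 3 to 352 CPM in tumor 2. Tumor 3 stood highest for Igfbp5 (77.9, 172 and 599 CPM), the matrix protein gene Postn (31.9, 64.4 and 232 CPM) and the antigen presentation genes B2m (322, 300.4 and 1163 CPM) and Psmb8 (42.5, 17.2 and 116 CPM). Markers of immune cells were also highest in the sum of tumor 3, with the macrophage lysozyme gene Lyz2 at 3.54, 103 and 865 CPM and the class II invariant chain gene Cd74 at 0, 12.9 and 309 CPM, and 1 cell held 503 of the 507 Lyz2 UMIs and all 181 Cd74 UMIs of tumor 3. With doublet candidates left out, Lyz2 read 0, 0 and 13.9 CPM and Cd74 was at 0 UMIs in all 3 tumors. B2m then read 396, 298 and 905 CPM, Psmb8 57.3, 33.1 and 146 CPM, Igfbp5 76.4, 74.4 and 519 CPM and Postn 38.2, 99.2 and 226 CPM. In tumor 3 the highest single cell then held 62 of 149 Igfbp5 UMIs, 12 of 42 Psmb8, 47 of 260 B2m and 9 of 65 Postn UMIs. Before the cut 1 cell of tumor 3 held 186 of its 682 B2m UMIs. Ccl2 was highest in tumor 2. For each of these genes, read in all mural cells, the exact Poisson 95% intervals of the highest and the lowest tumor did not overlap. Such an interval covers counting error only and treats the UMIs of 1 cell as independent. With doublet candidates left out the Lyz2 intervals overlapped (0 to 10.1 CPM in tumor 1, 3.79 to 35.7 CPM in tumor 3).

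**Figure D5:**
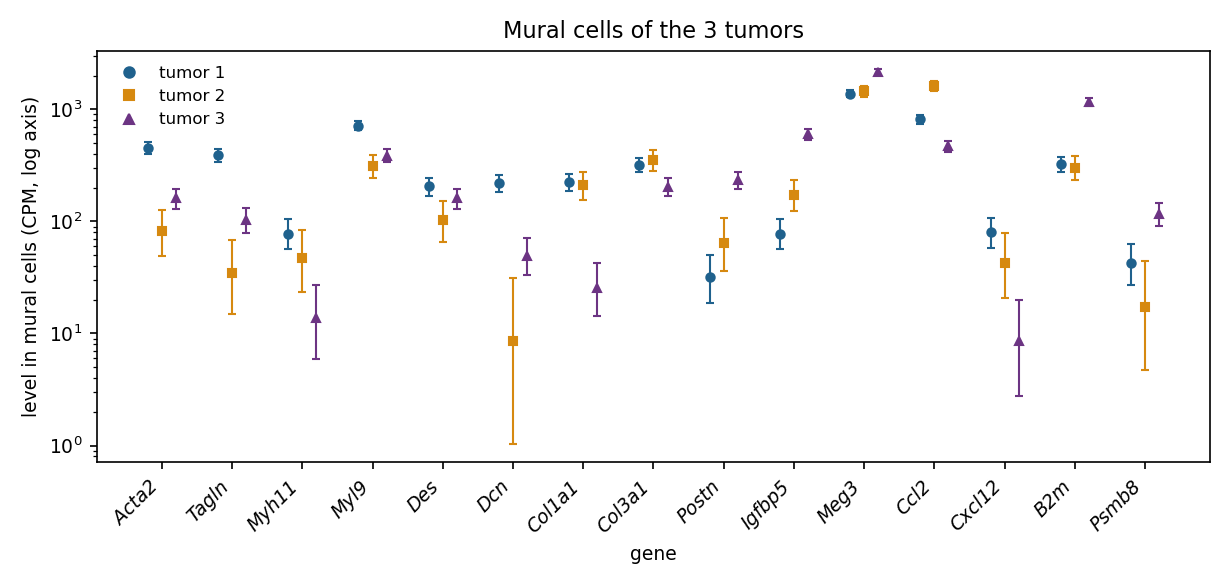
Levels of single genes in the mural cells of each tumor, in CPM on a log axis with exact Poisson 95% intervals. Dcn spans 8.58 to 219 CPM and Postn 31.9 to 232 CPM between tumors.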

How the data were processed

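Single-cell RNA of 3 tumors was measured with 10x Genomics 3′ chemistry. Per the labels and the submitters' processing notes, Cell Ranger 3.1.0 with the mouse genome mm10 made the deposited matrices, which hold raw UMI counts of 31053 genes per cell barcode with at least 500 UMIs. The authors removed cells they took for non-tumor cells only in their own analysis, so the deposited counts include them.

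Cells were classed by the detected genes given in the report, after a mitochondrial limit of 15%. The members, the 19 gene lists and the 6 lists of other cell types were chosen with earlier results of these data known, and no pattern in them is independent support. Counts were summed per tumor and class and tested with edgeR 4.0.16 (R 4.3.3; quasi-likelihood, TMM, filterByExpr, Benjamini-Hochberg at 0.05) with the tumor as a block, since the sums of a tumor come from the same animal. Every adjusted p in the text comes from this test unless another is named. The errors of log2 differences, given as SE, are the absolute difference divided by the square root of the F statistic of this test. They are not a spread of values measured over the tumors. Rule genes and the 13 mitochondrial genes stayed in the library sizes without a test. Named genes were Smarcb1, the largest differences per list, and outside the lists the 12 largest higher and 6 largest lower with the same sign in 3 tumors and at least 50 UMIs. For the endothelial comparison these were the 8 largest higher and the 6 largest lower, lists included. The contractile split took the 6 largest each way with at least 20 UMIs. Genes whose role the text explains were added whatever their result.

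No doublet caller was run. Cells with at least 2 of the 6 immune rule genes or at least 4 of 12 neural markers were left out in an alternative, as doublet candidates. Other alternatives were DESeq2 1.42.0, its size factors, no filter, no tumor block, each tumor left out, stricter and wider rules, a 10% mitochondrial limit and thinning to 2000 UMIs. On simulated counts with known changes in the comparison with all other cells, 41.8% of changes of 1.5 and 83.8% of changes of 3 on the log2 scale were recovered (15312 genes). In the endothelial comparison these were 63.4% and 86.3% (11964 genes). The counts were drawn from 1 mean per gene over all classes and tumors and 1 dispersion for all genes. They lack the tumor effects and gene-wise spread of the real sums, so the rates hold for that setting only. Leaving out the 2 deepest cells of each number of rule genes, and doublet candidates in the levels set side by side between tumors, was chosen after seeing the data. Shares have Clopper-Pearson intervals and levels exact Poisson intervals (scipy 1.17.1). GENCODE M21 gave coordinates. A few results that the rule for named genes would give are not reported here. Genes that overlap another on the same strand were not named. The other kinds of data in this study were not used here.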

Additional observations from a re-analysis of the deposited data

How the results depend on the processing

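Against all other cells, the higher genes numbered 930 where no endothelial gene was allowed in a mural cell. The lower genes numbered 670 with DESeq2, 355 with no tumor block, 688 with no endothelial gene allowed and 2164 with doublet candidates left out. With each tumor left out in turn, the higher genes ranged from 1126 to 1528 and the lower genes from 714 to 1169. The share of higher among called genes was 58.4%, and 77.9% with no tumor block, 69.5% with DESeq2, 46.05% after thinning and 46.1% without doublet candidates. The median of all genes moved from -0.20 to -0.75 without the filter on low counts, to -0.39 after thinning and to -0.37 without doublet candidates. Against endothelial cells, the higher genes numbered 527 with no endothelial gene allowed and 498 after thinning, and the lower genes 580 after thinning. With each tumor left out they ranged from 344 to 669 and from 320 to 748. Replicate block: 2 classes of cells share an animal, and with no tumor block the endothelial comparison gave 681 higher and 798 lower genes. In the contractile split, which takes 64 cells with at least 1 gene, 27 were higher and 15 lower with DESeq2 and 0 and 0 with no tumor block (357 at an unadjusted p under 0.05). With each tumor left out the higher genes ranged from 1 to 35 and the lower from 0 to 46. The mean share of mural cells was 1.501% with at least 2 of 7 genes and 0.649% with no endothelial gene allowed. Cdh5 turned to a log2 difference of 0.20 after thinning (adjusted p = 0.92), and H19 to 0.91 with at least 2 of 7 genes (adjusted p = 0.48). Of 124 genes named in the text and tested against all other cells, 106 passed, and 79 of these passed in every alternative that was run. Of 28 in the endothelial comparison 24 passed, 17 of them in every alternative. Calls against all other cells lost without the tumor block, beside those given with their genes, were those of C1qa, Cdh5, Col1a1, H2-Aa, Pdgfra, AC119264.1, Slc1a3, Smarcd3 and Spsb4. With no endothelial gene allowed AC119264.1, Cdh5, Ldha, Pdgfra, Psmb8, Rhobtb1, Smarca4, Smarcd1, Smarcd3 and Spsb4 were lost, after thinning Pdgfb, Pdgfra and Smarcd3, with at least 2 of 7 genes AC119264.1, C1qa, H2-Aa, Pdgfra and Rhobtb1, and with DESeq2 C1qa, Cdh5, H2-Aa, Pdgfra and Smarcd3. The cause of these shifts was not tested. With 236 cells, genes at a few UMIs cannot be told from 0, and with 3 tumors the spread rests on 3 animals.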
